A study of Mus musculus with 24 samples.

Results

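The sphingolipid genes described here are 44 genes for the enzymes, regulators, transporters and receptors that make, break down or respond to sphingolipids, followed through mouse macrophages given a sphingomyelin, a bacterial endotoxin or neither. They were chosen by name: a gene belongs to the set when its symbol in the deposited count table is 1 of the 44 listed, and all 44 were found among the 55401 genes of that table. Each is a protein-coding gene in the GENCODE M21 annotation of the GRCm38 build. By step, 12 act in ceramide synthesis, 13 in sphingomyelin turnover and ceramide use, 12 in glycosphingolipid metabolism and 7 in sphingosine 1-phosphate (S1P) signalling.

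The cells were bone marrow-derived macrophages of wild-type C57BL/6J mice, grown in medium conditioned by L929 cells, fibroblasts that secrete M-CSF, on which macrophages depend. Cells were left without treatment (untreated), given 30 µM of S14, or given 100 ng/mL of lipopolysaccharide (LPS), and were collected after 3 h or 18 h. The sample titles call the controls UT, whereas their columns in the deposited count table are headed Veh, so whether they received a vehicle is not settled here; they are called untreated below. S14 is sphingomyelin d18:1/14:0, and LPS, the outer membrane lipid of Gram-negative bacteria, is the ligand of Toll-like receptor 4. There were 6 groups of 4 libraries (n = 4 for each mean), and the 4 untreated libraries of a time serve both treatments. Whether the 4 libraries of a group came from separate mice was not given in the sources used, so the p-values measure the spread between libraries, which may be technical.

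Sphingolipids are built on a long-chain base that serine palmitoyltransferase makes from serine and palmitoyl-CoA in the endoplasmic reticulum. The base is acylated and desaturated to ceramide, the hub from which sphingomyelin, glycosphingolipids and ceramide 1-phosphate are made. Lysosomal hydrolases with their activator proteins return these lipids to ceramide and sphingosine, and phosphorylated sphingosine signals through its own G protein-coupled receptors before a lyase ends the pathway. In macrophages, lysosomal breakdown handles the sphingolipids of engulfed cells, and those of the plasma membrane surround the Toll-like receptors.

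Library totals ran from 3334182 to 6350251 reads, counted at the 3' ends of polyadenylated RNA. Levels are read counts divided by the scaled library size (CPM). Because reads come from transcript ends, they are compared between libraries for 1 gene and not between genes. The 8 macrophage markers summed to between 16039 and 45779 CPM in every library. Lyz2 made the largest part, with group means from 10787 to 28532 CPM. Group means ran from 581 to 1997 CPM for Adgre1 and from 1369 to 2641 CPM for Csf1r. The summed B cell, mast cell, erythroid and dendritic cell markers stayed at or under 4.46 CPM. The 8 neutrophil markers summed to at most 11.9 CPM in the untreated and S14 libraries, to between 7.53 and 35.2 CPM with LPS at 3 h and to between 41.2 and 50.4 CPM with LPS at 18 h. Nearly all of the last sum was S100a8 (mean 45.5 CPM), while S100a9 was at 0.459 CPM. The 6 stromal markers summed to between 10.3 and 17.5 CPM with LPS at 18 h, of which Dcn made 13.8 CPM on average, and to at most 1.99 CPM elsewhere; Col3a1, Pdgfra and Lum were at 0 in every library. The 6 T and NK cell markers, mostly Cd4, summed at 18 h to between 9.68 and 17.5 CPM untreated, 7.0 and 11.2 CPM with S14, and 1.12 and 4.37 CPM with LPS. The part of these markers in the results was not tested. In RNA from whole cultures, fewer expressing cells and less RNA per cell cannot be told apart.

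Of the 44 members, 40 passed the filter on low counts and were tested; Acer2, Smpd3, Sphk1 and Spns2 did not. A member is called when its adjusted p is under 0.05 in edgeR's quasi-likelihood F test with Benjamini-Hochberg adjustment over all 11717 genes tested. S14 at 3 h changed 8 of the 40 members, 3 higher and 5 lower, where 15.2% of all genes tested were called (9.05% higher, 6.2% lower). LPS at 3 h changed 23, 7 higher and 16 lower, with 55.5% of all genes called (25.3% higher, 30.2% lower). After 18 h, S14 changed 14 members, 5 higher and 9 lower, with 24.3% of all genes called (12.6% higher, 11.6% lower). LPS at that time changed 28, 14 in each direction, with 55.6% of all genes called (27.3% higher, 28.3% lower). As shares of the tested members these counts are 20.0%, 57.5%, 35.0% and 70.0%, so each lies near or somewhat above the share of all genes. The members' median log2 fold changes were -0.15, -0.23, -0.07 and -0.07 in the same order, beside -0.03, -0.11, -0.02 and -0.04 over all genes tested. Kdsr and Smpdl3b were called in all 4 comparisons (5.00% of tested members; 4.87% of all genes tested), whereas Cers2, Gm2a, Ormdl2, Sgpl1, Smpd4 and Sptlc1 were called in none of them (15.0% of tested members; 21.6% of all genes).

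**Figure D1:**
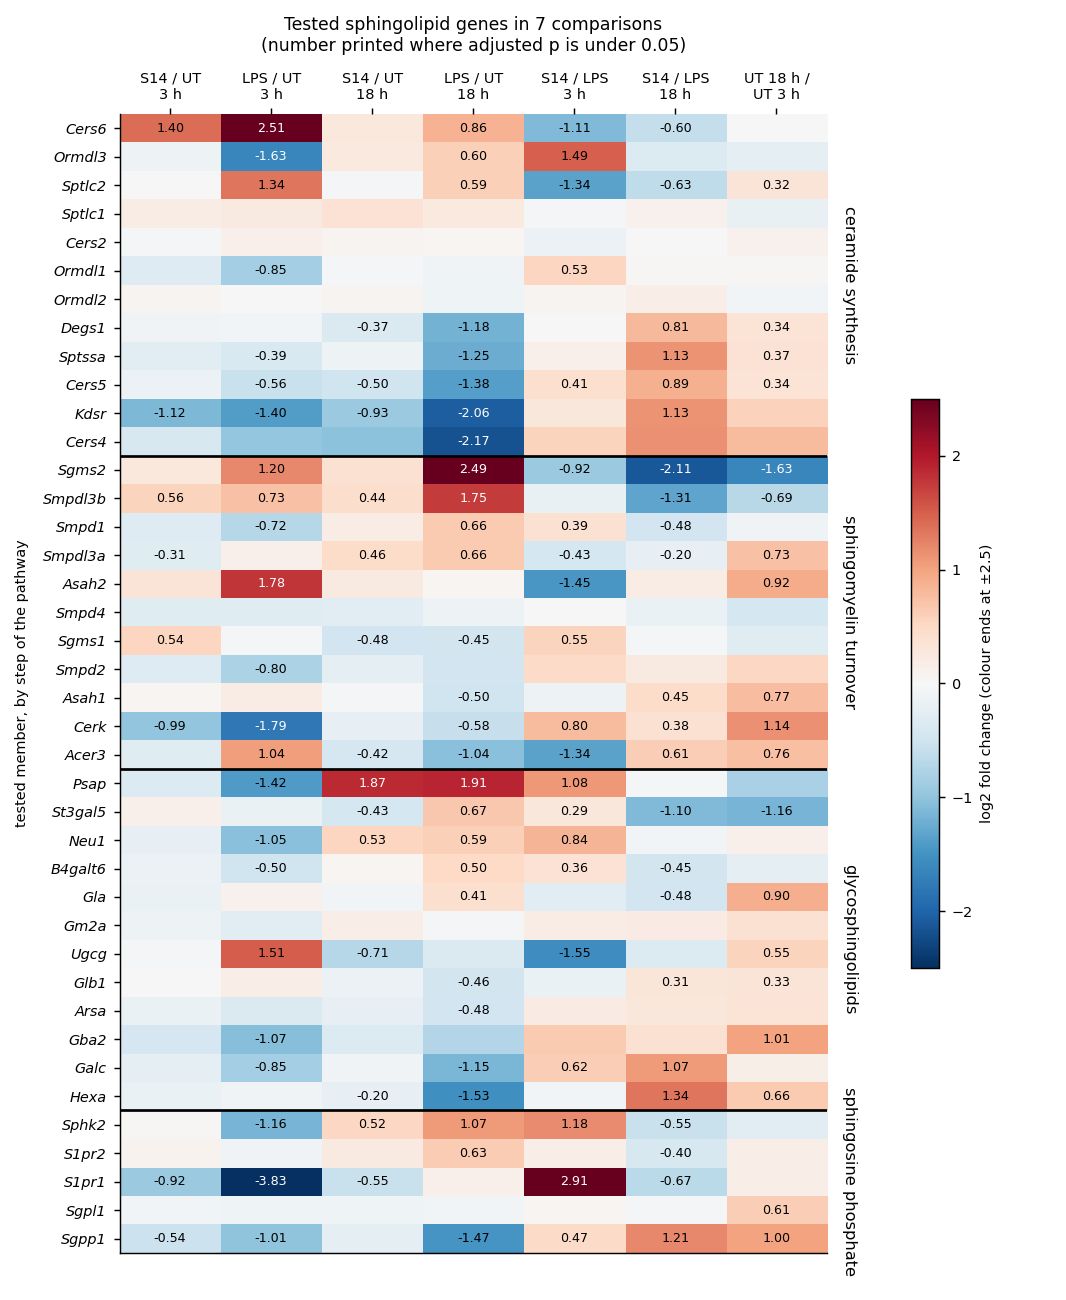
Log2 fold changes (colour) of the 40 tested members, in rows by step of the pathway, for the 7 comparisons in columns; UT is untreated, and a number is printed where the adjusted p is under 0.05. The LPS columns hold 23 and 28 numbers at 3 h and 18 h, the S14 columns 8 and 14. Some small positive values at 18 h turn negative under spike-in scaling (Neu1, Smpdl3a, Smpdl3b and Sphk2 for S14; Neu1, Sptlc2, Gla, Ormdl3, S1pr2 and B4galt6 for LPS; Glb1 for S14 against LPS). Smpdl3b in untreated cells over time turns positive under that scaling, and Smpdl3a for S14 against LPS with library totals alone. With untreated replicate 4 of 18 h left out, spike-in scaling turns none of these signs for LPS against untreated cells, for Neu1 or for Smpdl3b over time.

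The direction of small changes depends on how libraries are scaled. The main scaling (TMM) centres most genes near 0. Scaling to the reads of 114 spike-in RNA entries, whose added amount was not given, moved the median of all genes by 0.11 (S14) and 0.34 (LPS) at 3 h and by -0.97 and -0.64 at 18 h on the log2 scale; without untreated replicate 4 of 18 h, which had the lowest spike-in share (0.0134% of reads), the shifts at 18 h were -0.48 and -0.16. With it, the members called for S14 were 1 higher and 0 lower at 3 h and 1 higher and 30 lower at 18 h, and for LPS 7 higher and 5 lower, then 3 higher and 18 lower. With library totals alone and no scaling factor, the median moved by -0.09 (S14) and -0.62 (LPS) at 3 h and by -0.09 and -0.34 at 18 h, and the split was 3 higher and 10 lower, 5 higher and 32 lower, 4 higher and 13 lower, and 10 higher and 23 lower in that order. Changes below are relative to the main scaling, and a member whose sign turns under another is named as such. Spike-in values below include untreated replicate 4 of 18 h unless stated. Without that library, no called LPS sign at 18 h turned under spike-in scaling. For S14 at 18 h, Neu1 then kept its sign (0.04), and Smpdl3a, Smpdl3b and Sphk2 were at -0.04, -0.03 and -0.07.

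Among the genes of ceramide synthesis, some rose and others fell. Cers6, a ceramide synthase that attaches fatty acids such as palmitate to the long-chain base, rose with both treatments at 3 h, while Kdsr, the reductase of the second step, fell in all 4 treatment comparisons. Of the 12 genes of this step, all tested, S14 changed 2 at 3 h (1 higher, 1 lower) and 3 at 18 h (all lower), and LPS changed 7 at 3 h (2 higher, 5 lower) and 8 at 18 h (3 higher, 5 lower). The median log2 fold changes of the step were -0.11, -0.05, -0.23 and -0.09 in that order. The S14 counts, 2 and 3 of 12, stand beside 15.2% and 24.3% of all genes tested. Those for LPS were 58.3% of the step at 3 h, near the 55.5% of all genes. At 18 h they were 66.7%, somewhat above the 55.6% of all genes.

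Cers6 (chr2:68861441-69114282, + strand) stood at 3 h at 46.2, 47.1, 53.0 and 58.2 CPM in untreated libraries 1 to 4. It was at 129, 126, 137 and 147 CPM with S14 and 263, 293, 300.0 and 306 CPM with LPS. The 3 groups did not overlap, with S14 between the others. Its log2 fold change was 1.40 ± 0.10 (SE, adjusted p = 1.03e-14) for S14 and 2.51 ± 0.10 (SE, adjusted p = 1.63e-24) for LPS, and S14 libraries stayed below LPS libraries by -1.11 ± 0.09 (SE, adjusted p = 1.8e-13). After 18 h, Cers6 stood at 54.8, 50.7, 49.8 and 47.4 CPM in untreated libraries 1 to 4. It was at 60.0, 53.5, 62.5 and 67.1 CPM with S14 and 88.3, 80.0, 89.5 and 110.0 CPM with LPS. The LPS libraries still lay above all untreated ones, with a log2 fold change of 0.86 ± 0.10 (SE, adjusted p = 7.54e-10), which was 0.28 and no longer called under spike-in scaling (adjusted p = 0.488). The difference for S14 was 0.26 ± 0.10 (SE, adjusted p = 0.0545) and was not called.

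The stretch before the Cers6 start is shown because this gene had the largest rise among the tested members at 3 h with S14 and with LPS. It is the 250 bases upstream of the start that RefSeq gives on GRCm38.p6, chr2:68861191-68861440 on the + strand, written 5′ to 3′ with the E-box CACGTG in capitals, 22 bases before the start.
Cers6: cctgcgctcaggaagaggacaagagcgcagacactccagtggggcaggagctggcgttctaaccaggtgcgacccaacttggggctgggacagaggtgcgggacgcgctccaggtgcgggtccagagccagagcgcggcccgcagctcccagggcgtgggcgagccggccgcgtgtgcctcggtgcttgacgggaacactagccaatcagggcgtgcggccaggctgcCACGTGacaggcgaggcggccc
An E-box is a short motif read by basic helix-loop-helix factors. In windows from 250 bases before to 50 bases after the start, CACGTG was found in 10 of the 39 members with a window (25.6%), against 8.09% of 27025 genes; among tested genes it was in 9 of 36 members and in 12.3% of 8804 genes. The longer CLEAR element, the same E-box preceded by GT and followed by AC, was in 0 of the 39 members and 0.37% of genes. Both strands were searched, and a match of letters shows no binding.

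Kdsr (chr1:106720459-106759727, - strand) was read at 3 h at 16.2, 15.1, 17.8 and 11.0 CPM in untreated libraries 1 to 4. It was at 6.72, 10.8, 5.06 and 5.43 CPM with S14 and 7.30, 4.73, 6.31 and 4.41 CPM with LPS. After 18 h, Kdsr stood at 24.0, 29.9, 20.6 and 15.1 CPM in untreated libraries 1 to 4. It was at 11.2, 10.9, 14.8 and 10.1 CPM with S14 and 4.45, 3.27, 4.25 and 9.17 CPM with LPS. In both hours each treated library lay below each untreated one. The fall was -1.12 ± 0.27 (SE, adjusted p = 0.00188) with S14 and -1.40 ± 0.28 (SE, adjusted p = 4.44e-05) with LPS at 3 h, then -0.93 ± 0.24 (SE, adjusted p = 0.00362) and -2.06 ± 0.27 (SE, adjusted p = 1.24e-08) at 18 h on the log2 scale. Under spike-in scaling neither call at 3 h held (-1.0 with S14, adjusted p = 0.275, and -1.02 with LPS, adjusted p = 0.0598).

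Serine palmitoyltransferase, the committing enzyme, moved unevenly among its parts. Sptlc2, a catalytic subunit, was at 68.9 ± 7.77 CPM (SD) in untreated cells of 3 h and at 175 ± 23.4 CPM with LPS, a log2 fold change of 1.34 ± 0.12 (SE, adjusted p = 4.82e-12) with no overlap; at 18 h it was 0.59 ± 0.12 (SE, adjusted p = 7.75e-05), a sign that turned under spike-in scaling (-0.22). Its partner Sptlc1 was called in none of the comparisons, with 60.0 ± 6.84 CPM untreated and 69.7 ± 16.4 CPM with LPS at 3 h. The small subunit Sptssa fell with LPS by -0.39 ± 0.12 (SE, adjusted p = 0.00667) at 3 h and -1.25 ± 0.12 (SE, adjusted p = 7.87e-12) at 18 h, from 119 ± 20.2 CPM to 50.1 ± 7.21 CPM at the later time, when no LPS library reached an untreated one. At 3 h the value under spike-in scaling was -0.03 and not called.

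The Ormdl proteins restrain serine palmitoyltransferase. Ormdl3 (chr11:98581256-98587368, - strand) was read at 3 h at 16.2, 13.7, 16.3 and 18.1 CPM in untreated libraries 1 to 4. It was at 18.9, 8.23, 15.2 and 16.3 CPM with S14 and 5.14, 6.13, 4.86 and 4.67 CPM with LPS. The LPS libraries lay below all others, by -1.63 ± 0.23 (SE, adjusted p = 6.47e-08) against untreated cells. After 18 h, Ormdl3 stood at 13.4, 12.8, 13.8 and 14.7 CPM in untreated libraries 1 to 4. It was at 12.2, 17.5, 16.4 and 19.3 CPM with S14 and 21.3, 22.9, 18.6 and 20.5 CPM with LPS. LPS libraries now lay above all untreated ones, by 0.60 ± 0.19 (SE, adjusted p = 0.00654); this later sign turned under spike-in scaling (-0.07), and with library totals alone it was 0.27 and not called (adjusted p = 0.226). S14 called neither time (-0.13 and 0.25, adjusted p = 0.759 and 0.368). Ormdl1 was lower with LPS at 3 h by -0.85 ± 0.18 (SE, adjusted p = 0.000105), which was -0.43 and not called under spike-in scaling (adjusted p = 0.433). At 18 h Ormdl1 differed by -0.08 ± 0.17 (SE, adjusted p = 0.703). Ormdl2 was called in no comparison and ran from 40.3 to 61.8 CPM over all 24 libraries. Exons of Ormdl2 (5766 reads in all) overlap those of Dnajc14 (3118 reads) on the opposite strand. The strand setting of the counting was not given, so their reads may not be separable.

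The last enzymes of the step fell mainly with LPS at 18 h. Degs1, the desaturase that turns dihydroceramide into ceramide, went from 304 ± 19.4 CPM to 235 ± 17.7 CPM with S14 (-0.37 ± 0.08 (SE, adjusted p = 0.000247)) and 134 ± 2.70 CPM with LPS (-1.18 ± 0.08 (SE, adjusted p = 5.87e-17)). The 3 groups did not overlap at 18 h, and at 3 h neither treatment called Degs1. Cers5, a second synthase of long-chain ceramides, was lower with S14 at 18 h by -0.50 ± 0.11 (SE, adjusted p = 0.000969) and with LPS by -0.56 ± 0.12 (SE, adjusted p = 0.00012) at 3 h and -1.38 ± 0.12 (SE, adjusted p = 3.43e-13) at 18 h. The LPS value at 3 h was -0.22 and not called under spike-in scaling (adjusted p = 0.682). Cers4, at 5.81 ± 1.71 CPM in untreated cells of 18 h, was at 1.25 ± 0.738 CPM with LPS (-2.17 ± 0.46 (SE, adjusted p = 8.51e-05)). With S14 it was at 2.83 ± 0.664 CPM, below all untreated libraries of that time, but was not called. These levels rest on few reads, 138 untreated, 53 with S14 and 22 with LPS. Cers2, the synthase of very long-chain ceramides, was called in none of the treatment comparisons, with log2 fold changes between -0.02 and 0.12. Exons of Cers2 (22338 reads in all) overlap those of Setdb1 (2444 reads) on the opposite strand, with the same limit on strand as for Ormdl2.

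**Figure D2:**
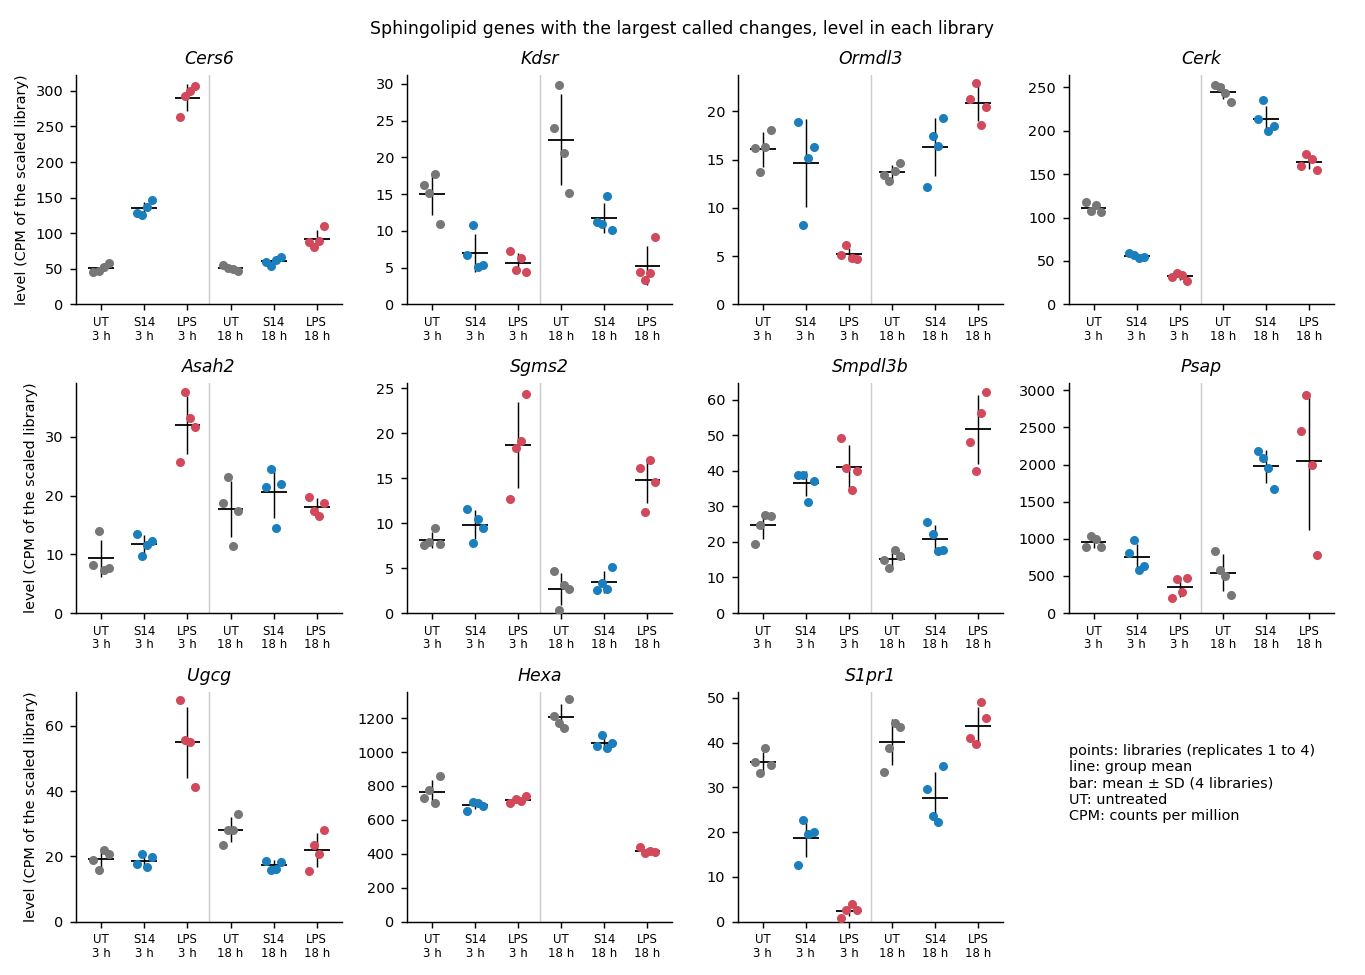
Level of 11 members in CPM of the scaled library (linear axes from 0, 1 panel per gene) for untreated (UT, grey), S14 (blue) and LPS (red) cells at 3 h and 18 h; points are libraries, lines group means and bars mean ± SD of 4 libraries. Cers6 rose in steps from untreated to S14 to LPS at 3 h, S1pr1 and Cerk fell in the same order, and Psap spread from 788 to 2931 CPM among the LPS libraries of 18 h.

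In sphingomyelin turnover, Sgms2 and Smpdl3b rose with LPS at both times, and Cerk, which makes ceramide 1-phosphate, fell with S14 at 3 h and with LPS at both times. Of its 13 genes, 11 were tested. S14 changed 4 at 3 h and 4 at 18 h, 2 in each direction both times; LPS changed 7 at 3 h (4 higher, 3 lower) and 8 at 18 h (4 in each direction). Of the tested genes of the step, these were 36.4%, 36.4%, 63.6% and 72.7%. The shares of all genes tested were 15.2%, 24.3%, 55.5% and 55.6%. The median log2 fold changes were -0.30 and -0.04 for S14 and 0.12 and -0.13 for LPS.

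The sphingomyelin synthases transfer phosphocholine to ceramide. Sgms2 (chr3:131318985-131491411, - strand), the synthase of the plasma membrane, was read at 3 h at 7.53, 7.88, 9.46 and 7.66 CPM in untreated libraries 1 to 4. It was at 11.6, 7.76, 10.5 and 9.49 CPM with S14 and 12.7, 18.4, 19.2 and 24.4 CPM with LPS. After 18 h, Sgms2 stood at 4.64, 0.316, 3.08 and 2.63 CPM in untreated libraries 1 to 4. It was at 2.59, 3.29, 2.66 and 5.16 CPM with S14 and 16.2, 11.3, 17.0 and 14.6 CPM with LPS. LPS libraries lay above all untreated and all S14 libraries at both times. Against untreated cells the log2 fold change with LPS was 1.20 ± 0.29 (SE, adjusted p = 0.000529) at 3 h and 2.49 ± 0.32 (SE, adjusted p = 1.07e-08) at 18 h, the later on a low untreated level; with S14 it was 0.27 ± 0.30 (SE, adjusted p = 0.656) and 0.38 ± 0.37 (SE, adjusted p = 0.507), not called. With library totals alone the LPS value at 3 h was 0.57 and not called (adjusted p = 0.0705). The Golgi synthase Sgms1 took another course. With S14 it went from 55.8 ± 3.11 CPM to 80.8 ± 7.36 CPM at 3 h (0.54 ± 0.12 (SE, adjusted p = 0.001)) and from 45.5 ± 2.91 CPM to 32.6 ± 2.6 CPM at 18 h (-0.48 ± 0.13 (SE, adjusted p = 0.00408)), so the called directions were opposite, with no overlap at either time. Both signs were the same under the other scalings tried, while the call at 3 h was lost under spike-in scaling (0.66, adjusted p = 0.554). With LPS, Sgms1 was called only at 18 h (-0.45 ± 0.13 (SE, adjusted p = 0.00289)).

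Sphingomyelinases release ceramide from sphingomyelin. Smpd1, the acid sphingomyelinase of lysosomes, was at 38.4 ± 4.21 CPM untreated and 23.4 ± 3.07 CPM with LPS at 3 h (-0.72 ± 0.14 (SE, adjusted p = 4.52e-05)), and at 36.2 ± 5.53 CPM and 57.3 ± 8.23 CPM at 18 h (0.66 ± 0.13 (SE, adjusted p = 3.59e-05)). It lay below the untreated libraries at the earlier time and above them at the later; under spike-in scaling the values were -0.42 and 0.06, neither called. S14 did not call it (adjusted p = 0.111 and 0.345). The neutral enzyme Smpd2 was called with LPS at 3 h (-0.80 ± 0.31 (SE, adjusted p = 0.0262)), where LPS replicate 3 stood at 11.4 CPM and the other 3 between 2.98 and 4.18; without that library the value was -1.45 (adjusted p = 1.73e-04), and without LPS replicate 1, 2 or 4 or untreated replicate 1 or 3 the call was lost (adjusted p from 0.05 to 0.118). Under spike-in scaling Smpd2 was at -0.54 and not called. Exons of Smpd2 (1146 reads in all) overlap those of Mical1 (1693 reads) on the opposite strand. The strand setting of the counting was not given, so their reads may not be separable. Smpd4 was called in no comparison. Smpd2 and Smpd4 were not called for S14 at either time (adjusted p from 0.331 to 0.56).

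Smpdl3a and Smpdl3b are relatives of the acid sphingomyelinase; the former acts on nucleotides, and the latter sits in the plasma membrane and is known to dampen Toll-like receptor signalling. Smpdl3b (chr4:132732966-132757252, - strand) was read at 3 h at 19.3, 24.8, 27.5 and 27.3 CPM in untreated libraries 1 to 4. It was at 38.8, 38.8, 31.2 and 37.1 CPM with S14 and 49.2, 40.9, 34.7 and 40.0 CPM with LPS. After 18 h, Smpdl3b stood at 14.9, 12.6, 17.8 and 15.9 CPM in untreated libraries 1 to 4. It was at 25.7, 22.2, 17.5 and 17.7 CPM with S14 and 48.2, 40.0, 56.2 and 62.2 CPM with LPS. Both treatments lay above all untreated libraries at 3 h and LPS did at 18 h, while S14 overlapped the untreated libraries at 18 h. The log2 fold changes were 0.56 ± 0.16 (SE, adjusted p = 0.00909) and 0.44 ± 0.17 (SE, adjusted p = 0.0448) for S14, and 0.73 ± 0.16 (SE, adjusted p = 0.000113) and 1.75 ± 0.16 (SE, adjusted p = 7.64e-13) for LPS. The S14 value at 18 h turned to -0.55 under spike-in scaling and was not called without S14 replicate 1 or 2 or untreated replicate 1 or 2 (adjusted p from 0.0697 to 0.208); the S14 value at 3 h was 0.46 (adjusted p = 0.063) without untreated replicate 1 and 0.69 (adjusted p = 0.613) under spike-in scaling. With library totals alone, Smpdl3b was not called for S14 at 18 h (0.35, adjusted p = 0.128) or for LPS at 3 h (0.11, adjusted p = 0.521). Smpdl3a was lower with S14 at 3 h, 90.9 ± 4.73 CPM against 113 ± 7.14 CPM (-0.31 ± 0.08 (SE, adjusted p = 0.00589), and -0.21, not called, under spike-in scaling), and higher at 18 h, 259 ± 5.77 CPM against 188 ± 21.1 CPM (0.46 ± 0.08 (SE, adjusted p = 1.8e-05), turning to -0.50 under spike-in scaling). With LPS it was called at 18 h only, 0.66 ± 0.08 (SE, adjusted p = 1.52e-09), and stood at 0.04 under spike-in scaling.

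Ceramidases cut ceramide to sphingosine, and ceramide kinase phosphorylates it. Asah2 (chr19:31982597-32108211, - strand), the neutral ceramidase, was read at 3 h at 8.24, 14.0, 7.26 and 7.66 CPM in untreated libraries 1 to 4. It was at 13.4, 9.64, 11.6 and 12.2 CPM with S14 and 25.7, 37.6, 33.3 and 31.7 CPM with LPS. The LPS libraries lay above all others, by 1.78 ± 0.21 (SE, adjusted p = 1.4e-09) against untreated cells. After 18 h, Asah2 was at 18.8, 23.1, 11.5 and 17.3 CPM in untreated libraries 1 to 4. It was at 21.5, 24.5, 14.4 and 22.0 CPM with S14 and 19.7, 17.4, 16.6 and 18.8 CPM with LPS. The groups overlapped, and no treatment was called. The alkaline ceramidase Acer3 was higher with LPS at 3 h, 82.4 ± 12.6 CPM against 40.2 ± 2.46 CPM (1.04 ± 0.12 (SE, adjusted p = 1.15e-09)), and lower at 18 h, 33.1 ± 2.79 CPM against 68.1 ± 8.84 CPM (-1.04 ± 0.12 (SE, adjusted p = 1.51e-09)), without overlap at either time. With S14 it was lower at 18 h by -0.42 ± 0.12 (SE, adjusted p = 0.00648), and at 3 h the difference was -0.30 ± 0.13 (SE, adjusted p = 0.119). The acid ceramidase Asah1 was called only for LPS at 18 h (-0.50 ± 0.09 (SE, adjusted p = 4.41e-06)).

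Cerk (chr15:86139128-86186141, - strand), ceramide kinase, was read at 3 h at 118, 107, 114 and 106 CPM in untreated libraries 1 to 4. It was at 59.4, 56.9, 52.9 and 55.1 CPM with S14 and 31.6, 36.2, 34.0 and 27.0 CPM with LPS. The 3 groups were separate, with S14 between untreated and LPS. The log2 fold changes were -0.99 ± 0.09 (SE, adjusted p = 5.21e-12) for S14 and -1.79 ± 0.09 (SE, adjusted p = 2.23e-20) for LPS. After 18 h, Cerk stood at 252, 250.0, 243 and 233 CPM in untreated libraries 1 to 4. It was at 213, 235, 199 and 205 CPM with S14 and 159, 173, 167 and 155 CPM with LPS. LPS libraries again lay below all untreated ones (-0.58 ± 0.08 (SE, adjusted p = 6.41e-08)), while S14 overlapped them and was not called (-0.20 ± 0.08 (SE, adjusted p = 0.0682)). Without untreated replicate 4 of 18 h, the S14 value at 18 h was -0.22 and called (adjusted p = 0.0442); under spike-in scaling the S14 value at 3 h was -0.88 and not called (adjusted p = 0.148).

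Of the 12 glycosphingolipid genes, all tested, S14 called 0 at 3 h with edgeR and 0 with DESeq2; Hexa and Neu1 had an unadjusted edgeR p under 0.05 (0.0278 and 0.0439), both lower. By 18 h, S14 changed 5 (2 higher, 3 lower). LPS changed 6 at 3 h (1 higher, 5 lower) and 9 at 18 h (5 higher, 4 lower). The S14 counts were 0.0% and 41.7% of the step, where 15.2% and 24.3% of all genes tested were called. Those for LPS were 50.0% and 75.0%, beside 55.5% and 55.6% of all genes. The median log2 fold changes were -0.16 and -0.12 for S14 and -0.33 and -0.19 for LPS.

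Synthesis begins with Ugcg (chr4:59189257-59222833, + strand), which adds glucose to ceramide. At 3 h it was read at 18.8, 15.8, 21.8 and 20.7 CPM in untreated libraries 1 to 4. It was at 17.6, 20.7, 16.7 and 19.8 CPM with S14 and 67.9, 55.7, 55.1 and 41.3 CPM with LPS. LPS libraries lay above all others, by 1.51 ± 0.16 (SE, adjusted p = 1.33e-10) against untreated cells, while S14 libraries overlapped the untreated ones. After 18 h, Ugcg stood at 23.4, 28.1, 28.1 and 32.9 CPM in untreated libraries 1 to 4. It was at 18.7, 15.8, 16.0 and 18.4 CPM with S14 and 15.5, 23.4, 20.6 and 28.2 CPM with LPS. Here S14 libraries lay below all untreated ones (-0.71 ± 0.17 (SE, adjusted p = 0.00121)), and LPS, at -0.36 ± 0.16 (SE, adjusted p = 0.0577), was not called. B4galt6, a lactosylceramide synthase, was lower with LPS at 3 h (-0.50 ± 0.11 (SE, adjusted p = 9.29e-05)) and higher at 18 h (0.50 ± 0.10 (SE, adjusted p = 9.11e-05)), which under spike-in scaling were -0.17 (adjusted p = 0.712) and -0.04, neither called; S14 called it at neither time. St3gal5, which makes ganglioside GM3, was lower with S14 at 18 h, 115 ± 12.4 CPM against 154 ± 21.4 CPM (-0.43 ± 0.10 (SE, adjusted p = 0.00113)), and higher with LPS, 246 ± 35.8 CPM (0.67 ± 0.10 (SE, adjusted p = 1.36e-07)). The S14 and LPS libraries of 18 h did not overlap for St3gal5; under spike-in scaling the LPS value was 0.06 and not called.

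Prosaposin, encoded by Psap (chr10:60277627-60302597, + strand), is cut into the saposins that present glycosphingolipids to lysosomal hydrolases. At 3 h it was read at 891, 1031, 1001 and 892 CPM in untreated libraries 1 to 4. It was at 803, 988, 582 and 631 CPM with S14 and 201, 461, 287 and 476 CPM with LPS. After 18 h, Psap stood at 841, 586, 504 and 236 CPM in untreated libraries 1 to 4. It was at 2186, 2089, 1958 and 1672 CPM with S14 and 2450.0, 2931, 1999 and 788 CPM with LPS. S14 libraries of 18 h lay above all untreated ones (1.87 ± 0.37 (SE, adjusted p = 0.000963)); of the LPS libraries 3 did, while replicate 4, at 788 CPM, fell within the untreated range (1.91 ± 0.37 (SE, adjusted p = 0.000223)). At 3 h the LPS libraries lay below all untreated ones (-1.42 ± 0.37 (SE, adjusted p = 0.00319)), and S14, at -0.35 ± 0.36 (SE, adjusted p = 0.643), was not called. Psap had the largest spread between libraries of the tested members: its SD within groups, pooled over the 6 groups, was 0.55 on the log2(CPM + 1) scale. The median of 116 genes within 1.5 times its mean level was 0.116, and 99.1% of them had a lower SD.

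**Figure D3:**
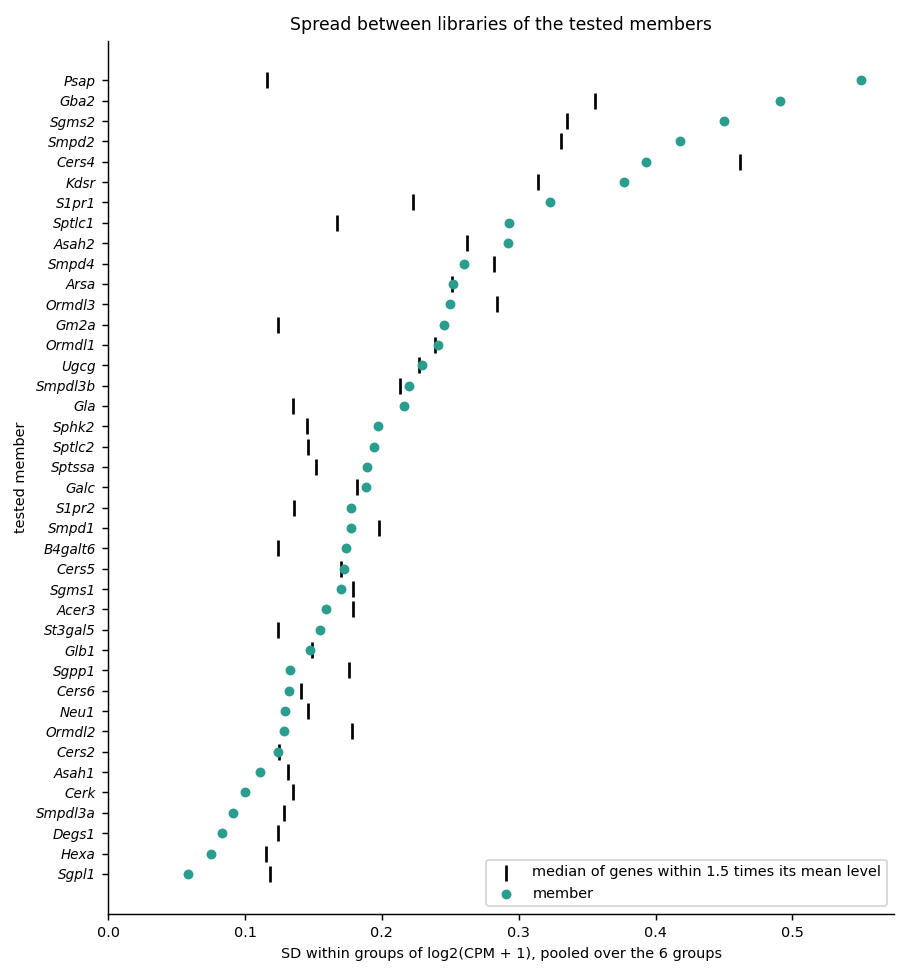
Spread between libraries of the 40 tested members: SD of log2(CPM + 1) within groups, pooled over the 6 groups (dots), and the median of that SD over all tested genes whose mean level is within 1.5 times the member's (ticks). Psap, at 0.55, lies farthest from its tick of 0.116, and Sgpl1 has the smallest SD, 0.058.

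Neu1, the lysosomal sialidase, went the same ways as Psap. It stood at 3 h at 91.1, 87.8, 102 and 84.8 CPM in untreated libraries 1 to 4. It was at 87.9, 76.7, 75.0 and 78.8 CPM with S14 and 55.7, 39.3, 37.6 and 44.7 CPM with LPS. With LPS it was lower without overlap (-1.05 ± 0.10 (SE, adjusted p = 8.69e-12), and -0.65, not called, under spike-in scaling), and with S14 it was not called (-0.20 ± 0.10 (SE, adjusted p = 0.184)). After 18 h, Neu1 stood at 99.9, 104, 96.6 and 97.3 CPM in untreated libraries 1 to 4. It was at 141, 148, 149 and 135 CPM with S14 and 156, 161, 144 and 140.0 CPM with LPS. It was higher without overlap for S14 (0.53 ± 0.09 (SE, adjusted p = 3.2e-05)) and LPS (0.59 ± 0.09 (SE, adjusted p = 7.36e-07)). Both signs at 18 h turned under spike-in scaling, to -0.47 and -0.08, whereas the Psap signs did not. Under that scaling without untreated replicate 4 of 18 h, the Neu1 values were 0.04 (S14) and 0.43 (LPS), neither called. Neu1 libraries were close together within groups (pooled SD 0.129, against a median of 0.146 for genes of like level).

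The stretches before the starts of Psap and Neu1 are shown because both genes were lower with LPS at 3 h and higher with each treatment at 18 h. Each is 250 bases before the RefSeq start on GRCm38.p6 and the + strand, Psap at chr10:60277378-60277627 and Neu1 at chr17:34931003-34931252, written 5′ to 3′ with the AP-1 motif TGANTCA, a site for Fos and Jun proteins, in capitals.
Psap: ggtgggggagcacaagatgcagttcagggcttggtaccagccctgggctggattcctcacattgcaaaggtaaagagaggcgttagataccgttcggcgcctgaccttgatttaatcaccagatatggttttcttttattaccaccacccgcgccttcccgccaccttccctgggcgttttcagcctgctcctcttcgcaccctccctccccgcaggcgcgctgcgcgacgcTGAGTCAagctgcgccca
Neu1: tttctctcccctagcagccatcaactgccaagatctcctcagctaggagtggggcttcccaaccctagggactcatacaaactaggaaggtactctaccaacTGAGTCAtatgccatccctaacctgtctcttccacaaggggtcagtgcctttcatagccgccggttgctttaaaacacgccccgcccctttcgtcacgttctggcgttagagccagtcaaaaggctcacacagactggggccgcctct
The motif starts 18 bases before the start in Psap and 148 bases before it in Neu1. On either strand of the 300-base windows, TGANTCA was found in 8 of 39 members (20.5%: Acer3, Asah2, Glb1, Neu1, Psap, Sgms1, Sgms2 and Sphk1) against 8.97% of 27025 genes, and among tested genes in 7 of 36 members and 6.28% of 8804 genes. A kappaB motif (GGGA, any 2 bases, TTCC) was in 0 members and 1.63% of genes, and an interferon-response motif (GAAA, any 2 bases, GAAA) in 0 members and 3.99% of genes. These matches describe letters in a short window and say nothing of which factors act there.

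The hydrolases that strip sugars and sulfate mostly fell or stayed with LPS. Hexa (chr9:59539540-59565109, + strand), the alpha subunit of beta-hexosaminidase, was read at 18 h at 1212, 1169, 1143 and 1311 CPM in untreated libraries 1 to 4. It was at 1036, 1102, 1024 and 1056 CPM with S14 and 441, 402, 415 and 413 CPM with LPS. The LPS libraries lay far below all others of that time, with a log2 fold change of -1.53 ± 0.07 (SE, adjusted p = 4.49e-22) against untreated cells. Earlier, at 3 h, Hexa was at 729, 774, 700.0 and 861 CPM in untreated libraries 1 to 4. It was at 653, 707, 701 and 683 CPM with S14 and 700.0, 723, 713 and 740.0 CPM with LPS. Neither treatment was called then. The S14 value at 18 h, -0.20 ± 0.07 (SE, adjusted p = 0.0321), is small, and the call was lost when S14 replicate 1, 3 or 4 or untreated replicate 1 or 4 was left out (adjusted p from 0.0512 to 0.0978). Galc, the galactosylceramidase, fell with LPS at 3 h (-0.85 ± 0.13 (SE, adjusted p = 7.88e-07), and -0.52, not called, under spike-in scaling) and 18 h (-1.15 ± 0.13 (SE, adjusted p = 6.77e-10)). Glb1, a beta-galactosidase, and Arsa, arylsulfatase A, were lower with LPS at 18 h (-0.46 ± 0.10 (SE, adjusted p = 0.0002) and -0.48 ± 0.18 (SE, adjusted p = 0.0214)); the Arsa call was lost without LPS replicate 3 or untreated replicate 1 (adjusted p = 0.0771 and 0.101).

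In several members of this step untreated replicate 4 of 18 h lay well outside the range of the other 3 untreated libraries. Psap was the lowest there (above), B4galt6 was at 163 CPM against 248 to 278 CPM in the others, and Glb1 at 128 CPM against 103 to 107 CPM. Gla, alpha-galactosidase A, was at 141, 160.0, 140.0 and 261 CPM in untreated libraries 1 to 4 of 18 h and at 236, 261, 212 and 225 CPM with LPS. Its LPS value was 0.41 ± 0.14 (SE, adjusted p = 0.0127) with replicate 4 and 0.67 (adjusted p = 1.41e-08) without it, turned to -0.46 under spike-in scaling, and was not called without untreated replicate 1 or 3 (adjusted p = 0.0506 and 0.054). Gba2, a glucosylceramidase outside the lysosome, was at 6.19, 9.17, 11.0 and 29.4 CPM in the same 4 untreated libraries; it was called for LPS at 3 h (-1.07 ± 0.41 (SE, adjusted p = 0.0244)), a call lost without LPS replicate 2 or 4 or untreated replicate 3 or 4 (adjusted p from 0.0521 to 0.0882) and under spike-in scaling (-0.75, adjusted p = 0.325). Gm2a, the GM2 activator, was at 390.0, 343, 311 and 168 CPM there and was called in no treatment comparison; without replicate 4, the LPS value at 18 h was -0.23 and called (adjusted p = 0.0198). Exons of Gba2 overlap those of Creb3 and Rgp1 on the opposite strand, and the strand setting of the counting was not given in the sources used, so their reads may not be separable.

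The S1P genes split between a receptor that fell steeply with LPS at 3 h and a kinase that was lower with LPS at 3 h and higher at 18 h. Of 7 genes, 5 were tested. S14 changed 2 at 3 h (both lower) and 2 at 18 h (1 in each direction), and LPS changed 3 at 3 h (all lower) and 3 at 18 h (2 higher, 1 lower). With 5 genes tested, these were 40.0% for S14 and 60.0% for LPS at each time. Of all genes tested, S14 called 15.2% and 24.3%, and LPS 55.5% and 55.6%. The median log2 fold changes were -0.07 and -0.10 for S14 and -1.01 and 0.13 for LPS.

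S1pr1 (chr3:115710433-115715072, - strand), a receptor that guides cells along S1P gradients, was read at 3 h at 35.6, 33.3, 38.7 and 35.0 CPM in untreated libraries 1 to 4. It was at 12.7, 22.6, 19.6 and 20.0 CPM with S14 and 0.811, 2.51, 3.88 and 2.6 CPM with LPS. The 3 groups were separate. The log2 fold change was -0.92 ± 0.17 (SE, adjusted p = 6.65e-05) for S14 and -3.83 ± 0.24 (SE, adjusted p = 6.87e-18) for LPS, the largest change of any member in the 4 treatment comparisons. After 18 h, S1pr1 stood at 33.5, 38.9, 44.5 and 43.6 CPM in untreated libraries 1 to 4. It was at 29.7, 23.5, 22.2 and 34.8 CPM with S14 and 41.0, 39.8, 49.0 and 45.4 CPM with LPS. LPS libraries overlapped the untreated ones (0.13 ± 0.16 (SE, adjusted p = 0.519)), while S14 libraries were lower with 1 library inside that range (-0.55 ± 0.16 (SE, adjusted p = 0.0106)). The latter call was lost without S14 replicate 2 (-0.47, adjusted p = 0.0515) or 3 (-0.45, adjusted p = 0.0624), and the S14 value at 3 h was -0.81 and not called under spike-in scaling (adjusted p = 0.397). S1pr2, another S1P receptor, was higher only with LPS at 18 h, 194 ± 38.2 CPM against 126 ± 13.7 CPM (0.63 ± 0.11 (SE, adjusted p = 4.41e-06)), and this turned to -0.13 under spike-in scaling.

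Sphk2, the kinase that makes S1P in the nucleus and mitochondria, was at 88.8, 104, 106 and 100.0 CPM in untreated libraries of 3 h, 106, 119, 84.5 and 97.0 CPM with S14 and 39.2, 38.7, 50.0 and 50.1 CPM with LPS. At 18 h these were 98.5, 83.6, 86.0 and 62.7 CPM untreated, 110.0, 128, 119 and 118 CPM with S14 and 168, 210.0, 175 and 142 CPM with LPS. LPS libraries were the lowest at 3 h (-1.16 ± 0.13 (SE, adjusted p = 3.72e-10)) and the highest at 18 h (1.07 ± 0.12 (SE, adjusted p = 3.71e-10)), and S14 libraries of 18 h lay between the others (0.52 ± 0.12 (SE, adjusted p = 0.000974)). Under spike-in scaling the values at 18 h were 0.47 with LPS (adjusted p = 0.187), not called, and -0.37 with S14. Exons of Sphk2 overlap those of Dbp and Rpl18, a ribosomal protein gene with 37129 reads in all, on the opposite strand, with the same limit on strand as for Gba2. Sgpp1, the phosphatase that returns S1P to sphingosine, was lower with S14 at 3 h (-0.54 ± 0.12 (SE, adjusted p = 0.00045)) and with LPS at 3 h (-1.01 ± 0.12 (SE, adjusted p = 1.56e-09)) and 18 h (-1.47 ± 0.11 (SE, adjusted p = 4.96e-15)); under spike-in scaling the values at 3 h were -0.43 and -0.69, neither called. Sgpl1, the lyase that ends the pathway, was called in no treatment comparison and had the smallest spread of the tested members (pooled SD 0.058).

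The 4 members under the filter gave few reads. Sphk1, the other sphingosine kinase, had 3, 0, 1 and 0 reads in untreated libraries of 3 h, 3, 1, 4 and 4 with S14, and 21, 10, 10 and 8 with LPS. All LPS libraries exceeded all others of that time; the ratio of LPS to untreated CPM over the summed reads was 13.8, with a 95% counting interval from 5.05 to 52.5 that covers counting error only. In a fit without the filter, edgeR gave a log2 fold change of 3.64 ± 0.92 (SE, adjusted p = 4.15e-04), and 1.35 ± 1.01 for S14 (adjusted p = 0.6). Smpd3, a neutral sphingomyelinase, had 8, 10, 33 and 2 reads in untreated libraries of 18 h and 1, 0, 0 and 2 with LPS, a ratio of 0.0797 (interval 0.0159 to 0.246). Its reads differed by 11.0% between the deposited tables, and its exons overlap Prmt7 on the opposite strand. The ceramidase Acer2 had 18 reads in the untreated and 15 in the S14 libraries of 3 h, and the S1P exporter Spns2 had 8 reads in all 24 libraries, too few for a difference to be detectable.

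**Figure D4:**
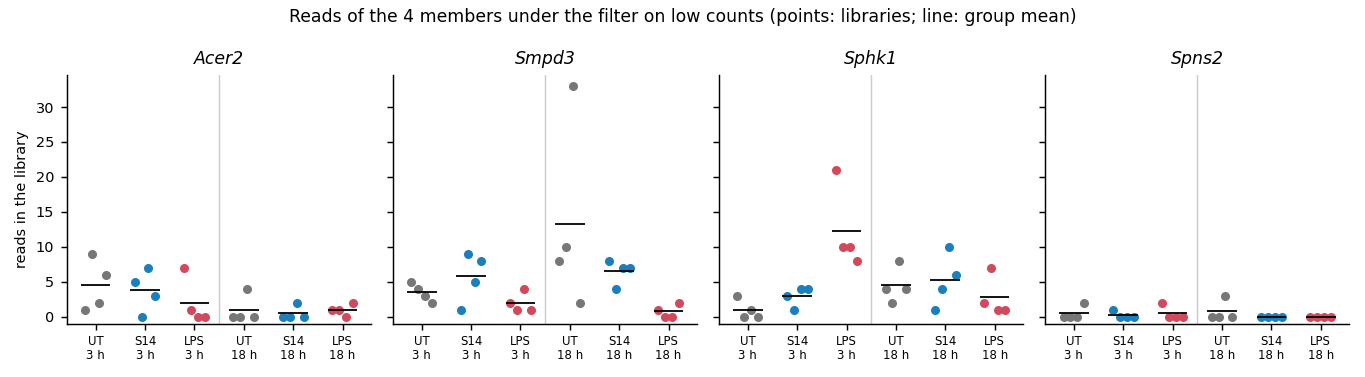
Reads per library (vertical axis, linear) of the 4 members under the filter on low counts, for untreated (UT, grey), S14 (blue) and LPS (red) cells at 3 h and 18 h; points are libraries and lines group means. The LPS libraries of 3 h hold 8 to 21 reads of Sphk1, and 1 untreated library of 18 h holds 33 of Smpd3.

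Whether a treatment's effect differed between 18 h and 3 h was tested as an interaction. For S14 the effect differed in 8 of 40 members, with 16.6% of all genes called (7.61% higher, 8.98% lower). Psap, Cerk, Smpdl3a, Neu1 and Sphk2 moved up between the times and St3gal5, Sgms1 and Cers6 down. The largest were Psap (2.21 ± 0.52 (SE, adjusted p = 0.00538)), Cers6 (-1.14 ± 0.14 (SE, adjusted p = 9.32e-08)) and Sgms1 (-1.02 ± 0.18 (SE, adjusted p = 3.51e-05)). Under spike-in scaling the signs for Cerk, Smpdl3a, Neu1 and Sphk2 turned, and the Sphk2 call (adjusted p = 0.038) was lost when any of 9 libraries was left out (adjusted p from 0.0523 to 0.1). For LPS the effect differed in 27 of 40 members, 14 upward and 13 downward, with 51.2% of all genes called (25.1% higher, 26.1% lower). S1pr1 (3.95 ± 0.29 (SE, adjusted p = 4.74e-15)), Psap (3.34 ± 0.53 (SE, adjusted p = 2.59e-05)), Ormdl3 (2.23 ± 0.30 (SE, adjusted p = 3.05e-08)) and Sphk2 (2.23 ± 0.17 (SE, adjusted p = 5.33e-14)) led the upward differences, and Acer3 (-2.07 ± 0.17 (SE, adjusted p = 1.65e-13)) and Ugcg (-1.87 ± 0.23 (SE, adjusted p = 5.25e-09)) the downward ones. The Ormdl3 difference was 1.25 and not called under spike-in scaling (adjusted p = 0.0612). The effect of LPS was called in opposite directions at the 2 times in 7 members (17.5%; 9.96% of all genes tested): Acer3 was higher then lower, and B4galt6, Neu1, Ormdl3, Psap, Smpd1 and Sphk2 were lower then higher, with B4galt6, Neu1 and Ormdl3 losing the later sign under spike-in scaling. Without untreated replicate 4 of 18 h, those later signs held under that scaling (0.20, 0.43 and 0.48), none of them called.

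**Figure D5:**
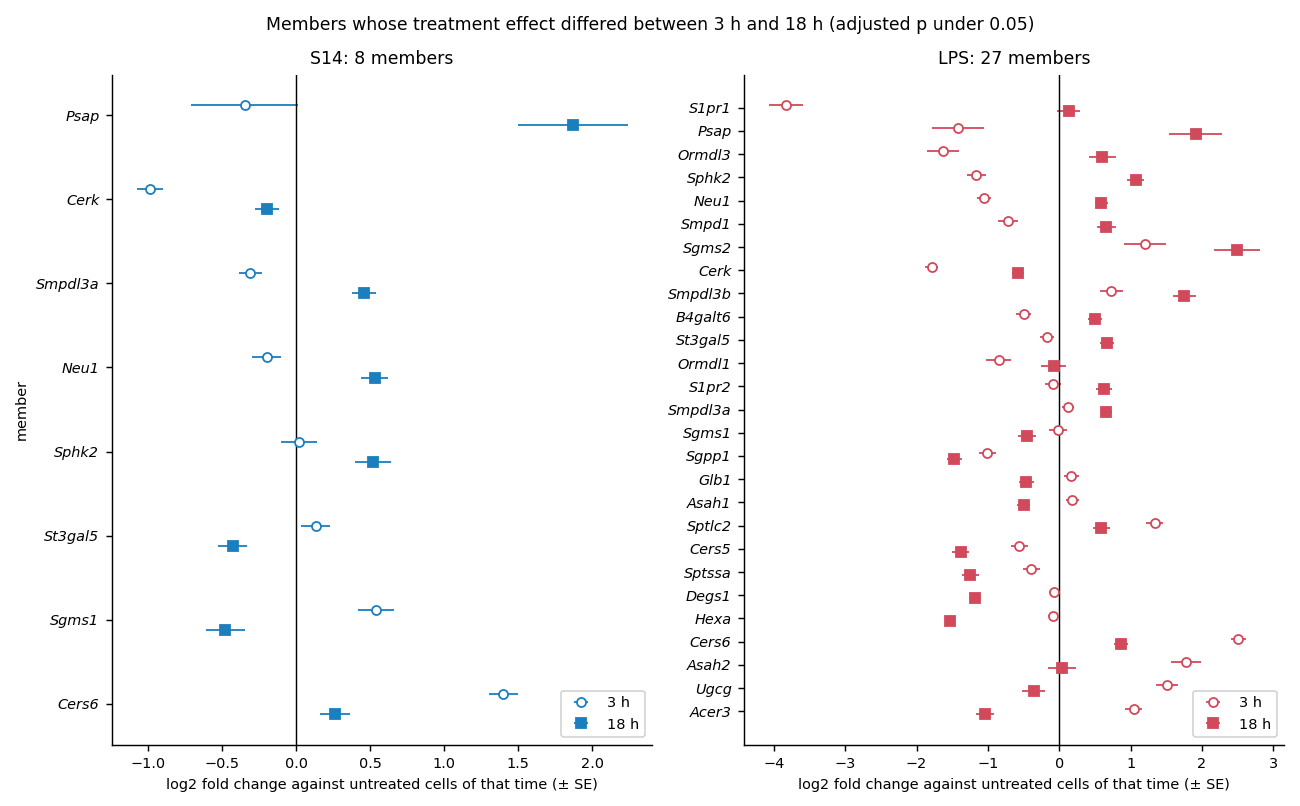
Log2 fold change against untreated cells of the same time, ± SE, at 3 h (open circles) and 18 h (filled squares), for the members whose effect differed between the times: 8 for S14 (left) and 27 for LPS (right). S1pr1 under LPS moves from -3.83 to 0.13 and Cers6 under S14 from 1.40 to 0.26; under spike-in scaling the difference for S14 turned sign for Cerk, Smpdl3a, Neu1 and Sphk2, and that for LPS for Smpdl3a, Ormdl1, S1pr2 and St3gal5. Without untreated replicate 4 of 18 h, that scaling turned only Sphk2 with S14.

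Untreated cells changed between 3 h and 18 h in culture too. Of 40 members, 19 were called, 16 higher and 3 lower at 18 h, with 38.8% of all genes called (19.2% higher, 19.6% lower). Under spike-in scaling 29 were higher and 0 lower, with 5426 higher and 213 lower among all 11717 genes tested. That scaling moved the median of all genes by 0.83 for this comparison. Without untreated replicate 4 of 18 h, the shift was 0.34, and 16 members were higher and 2 lower. Cerk was higher at 18 h by 1.14 ± 0.08 (SE, adjusted p = 7.86e-15), Sgpp1 by 1.00 ± 0.11 (SE, adjusted p = 5.13e-10) and Asah1 by 0.77 ± 0.09 (SE, adjusted p = 1.15e-09), each without overlap. St3gal5 (-1.16 ± 0.10 (SE, adjusted p = 6.25e-13)), Sgms2 (-1.63 ± 0.34 (SE, adjusted p = 0.000136)) and Smpdl3b (-0.69 ± 0.16 (SE, adjusted p = 0.000819)) were lower; under spike-in scaling these values were -0.39, -0.85 and 0.17, none of them called. The calls for Gba2 and Sptlc2 were lost without untreated replicate 4 of 18 h (0.36 and 0.11, adjusted p = 0.348 and 0.421). The median log2 fold change of the members was 0.33, against -0.01 over all genes tested.

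Setting the treatments against each other at the same time, S14 and LPS libraries differed in 21 of 40 members at 3 h, 14 higher with S14 and 7 lower, with 46.1% of all genes called (23.7% higher, 22.4% lower). They differed in 23 at 18 h, 11 higher and 12 lower, with 42.6% of all genes called (21.3% higher, 21.3% lower). With library totals alone the splits were 32 higher and 5 lower, then 17 higher and 7 lower, and with spike-in scaling 4 higher and 5 lower, then 2 higher and 7 lower. Called genes as a whole shifted too. With library totals alone 83.8% and 74.0% of them were higher (median of all genes moved by 0.53 and 0.24). With spike-in scaling 27.4% and 27.1% were higher (median moved by -0.23 and -0.32). At 3 h the largest differences were S1pr1 (2.91 ± 0.25 (SE, adjusted p = 4.26e-13)), Ugcg (-1.55 ± 0.16 (SE, adjusted p = 8.56e-11)) and Ormdl3 (1.49 ± 0.23 (SE, adjusted p = 5.63e-07)). At 18 h they were Sgms2 (-2.11 ± 0.32 (SE, adjusted p = 6.12e-07)), Hexa (1.34 ± 0.07 (SE, adjusted p = 1.25e-19)) and Smpdl3b (-1.31 ± 0.16 (SE, adjusted p = 2.86e-09)). In each of these 6 differences the S14 and LPS libraries did not overlap. Psap and Neu1 at 18 h, by contrast, differed between S14 and LPS by -0.05 ± 0.36 (SE, adjusted p = 0.932) and -0.07 ± 0.09 (SE, adjusted p = 0.594); the interval of 2 SE for Psap runs from -0.77 to 0.67 and does not exclude a sizeable difference, while that for Neu1 runs from -0.25 to 0.12. S1pr1 at 18 h was lower with S14 than with LPS by -0.67 ± 0.16 (SE, adjusted p = 0.000867).

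Beside the members, a list of 35 other sphingolipid genes was followed, of which 16 passed the filter. S14 changed 4 at 3 h (3 higher, 1 lower) and 6 at 18 h (2 higher, 4 lower), and LPS 9 at 3 h (6 higher, 3 lower) and 14 at 18 h (6 higher, 8 lower). The S14 counts, 4 and 6 of 16, stand beside 15.2% and 24.3% of all genes tested. The LPS counts were 56.2% of the 16 at 3 h, near the 55.5% of all genes, and 87.5% at 18 h, above the 55.6% of all genes. Plpp3, a lipid phosphate phosphatase of the cell surface, was at 5.37 ± 1.80 CPM untreated, 17.9 ± 3.81 CPM with S14 and 20.1 ± 4.67 CPM with LPS at 3 h, log2 fold changes of 1.75 ± 0.26 (SE, adjusted p = 1.42e-06) and 1.91 ± 0.26 (adjusted p = 4.44e-08). At 18 h it was at 4.70 ± 1.83, 6.61 ± 1.48 and 27.0 ± 5.51 CPM in the same order. Its relative Plpp1 was at 0.448 ± 0.561 CPM untreated (10 reads in all) and 18.7 ± 6.70 CPM with LPS at 18 h (5.40 ± 0.50, adjusted p = 4.63e-12). S14 at 18 h was not called for Plpp1 (1.44 ± 0.69, adjusted p = 0.127). At 3 h Plpp1 was at 1.35 ± 0.994 CPM untreated, 6.91 ± 1.67 CPM with S14 and 6.02 ± 1.03 CPM with LPS. In edgeR's test both were called at these low levels (2.35 ± 0.47, adjusted p = 2.21e-04, and 2.14 ± 0.48, adjusted p = 2.48e-04). With LPS at 3 h, B4galt5, a lactosylceramide synthase beside B4galt6, rose from 87.9 ± 7.73 to 323 ± 12.7 CPM (1.88 ± 0.09, adjusted p = 6.52e-22), Naaa, an acid amidase of the ceramidase family, by 1.49 ± 0.11 (adjusted p = 2.13e-15), and Nsmaf, an adaptor of neutral sphingomyelinase activation, by 1.03 ± 0.17 (adjusted p = 1.03e-06), the last being 0.41 with library totals alone. Samd8, which makes ceramide phosphoethanolamine, fell by 1.45 ± 0.13 (adjusted p = 3.37e-13). With LPS at 18 h and the main scaling, edgeR gave 0.53 ± 0.09 for B4galt5 (adjusted p = 1.73e-06). Nsmaf was then not called (0.06 ± 0.16, adjusted p = 0.763). Naaa was lower (-0.56 ± 0.10, adjusted p = 1.56e-05) and Samd8 higher (0.62 ± 0.11, adjusted p = 3.88e-06). In untreated cells Naaa was higher at 18 h than at 3 h (1.28 ± 0.11, adjusted p = 9.83e-13). B3galt4, a ganglioside galactosyltransferase, was higher in untreated cells at 18 h than at 3 h (1.20 ± 0.30, adjusted p = 1.32e-03). Its untreated libraries of 18 h were at 10.1, 12.5, 13.8 and 26.8 CPM, and without the last, replicate 4, the value was 0.82 (adjusted p = 0.0185).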

How the data were processed

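Mouse macrophage RNA was measured in 24 libraries by sequencing of 3' ends. The authors deposited whole read counts per gene with no normalization, and a second table of normalized counts, a signal equal to reads divided by 1 size factor per library; multiplying back gave whole numbers (within 1e-04 reads) for 100.0% of its values, and only these reads and its spike-in entries were used. The submitters' processing notes name STAR 2.6.1a, featureCounts 1.6.4 from Subread, cutadapt 1.18, FastQC, GRCm38 and DESeq2; strand setting, multiple matches and annotation release were not given. The 7 ribosomal RNA entries (0.132% to 0.469% of reads) were set aside.

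Genes were kept with filterByExpr by group (minimum count 10, minimum total 15), scaled by TMM and fitted in edgeR 4.0.16 (R 4.3.3) with a mean for each group (24 libraries, 18 residual degrees of freedom), a robust quasi-likelihood F test and Benjamini-Hochberg adjustment over 11717 genes. SE is the log2 fold change over the root of F. The fit was tested on simulated data. Alternatives were RLE, spike-in or no scaling, DESeq2 1.42.0, no filter, only the groups compared, a replicate block, the second table's reads, a threshold of 0.01 and each library left out. The members, lists, motifs and tests were chosen with earlier results of these data known.

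Full values go to the called members with the 4 largest absolute log2 fold changes for each treatment and time. For S14 against LPS at each time, they go to the 3 largest. These members had at least 10 CPM in the higher group. Other genes of the pathway are named where called at an absolute log2 fold change of at least 1, with the same minimum of 10 CPM. Values of a named gene in other comparisons are added for some. Neu1, Sphk2 and the promoter stretches were chosen after their values were seen. Positions are from GENCODE M21, and promoter windows from RefSeq on GRCm38.p6 (39 of 44 members matched); the 3 shown were checked for direction against transcript starts.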

Additional observations from a re-analysis of the deposited data

Results flagged for a closer look

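Among 240 sets of 4 libraries (40 tested members in 6 groups), 13 had 1 library far from the other 3 by Dixon's gap ratio; chance flags about 1 in 20 groups. Acer3 was at 101 CPM in LPS replicate 1 of 3 h and between 73.5 and 78.2 CPM in the other 3. Asah1 was at 106 CPM in untreated replicate 3 of 3 h and between 125 and 128 CPM in the other 3. Asah1 was at 186 CPM in S14 replicate 2 of 18 h and between 206 and 207 CPM in the other 3. Asah2 was at 14.0 CPM in untreated replicate 2 of 3 h and between 7.26 and 8.24 CPM in the other 3. Galc was at 52.5 CPM in untreated replicate 2 of 3 h and between 58.9 and 60.1 CPM in the other 3. Gla was at 261 CPM in untreated replicate 4 of 18 h and between 140.0 and 160.0 CPM in the other 3. Glb1 was at 85.3 CPM in untreated replicate 4 of 3 h and between 88.2 and 88.5 CPM in the other 3. Glb1 was at 128 CPM in untreated replicate 4 of 18 h and between 103 and 107 CPM in the other 3. Ormdl1 was at 22.6 CPM in S14 replicate 2 of 3 h and between 20.2 and 20.4 CPM in the other 3. S1pr2 was at 105 CPM in untreated replicate 3 of 18 h and between 131 and 134 CPM in the other 3. Smpd2 was at 11.4 CPM in LPS replicate 3 of 3 h and between 2.98 and 4.18 CPM in the other 3. Smpd2 was at 14.3 CPM in LPS replicate 1 of 18 h and between 8.73 and 8.95 CPM in the other 3. Smpdl3a was at 219 CPM in untreated replicate 2 of 18 h and between 173 and 180.0 CPM in the other 3.

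The effect of S14 against untreated cells differed between the times, by edgeR's interaction test, in 8 members. On the log2 scale (18 h minus 3 h) it was higher at 18 h for Psap (2.21), Cerk (0.79), Smpdl3a (0.78), Neu1 (0.73) and Sphk2 (0.49), and lower for St3gal5 (-0.56), Sgms1 (-1.02) and Cers6 (-1.14). Under spike-in scaling the signs for Cerk, Smpdl3a, Neu1 and Sphk2 turned (-0.31, -0.29, -0.38 and -0.52). With untreated replicate 4 of 18 h also left out, these were 0.18, 0.17, 0.13 and -0.22.

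The effect of LPS differed between the times in 27 members by the same test. It was higher at 18 h for S1pr1 (3.95), Psap (3.34), Ormdl3 (2.23), Sphk2 (2.23), Neu1 (1.64), Smpd1 (1.38), Sgms2 (1.29), Cerk (1.21), Smpdl3b (1.02), B4galt6 (1.00), St3gal5 (0.84), Ormdl1 (0.77), S1pr2 (0.72) and Smpdl3a (0.55). It was lower at 18 h for Sgms1 (-0.43), Sgpp1 (-0.45), Glb1 (-0.64), Asah1 (-0.67), Sptlc2 (-0.75), Cers5 (-0.82), Sptssa (-0.86), Degs1 (-1.11), Hexa (-1.44), Cers6 (-1.64), Asah2 (-1.74), Ugcg (-1.87) and Acer3 (-2.07). Under spike-in scaling the signs for Smpdl3a, Ormdl1, S1pr2 and St3gal5 turned (-0.44, -0.40, -0.36 and -0.12). With untreated replicate 4 of 18 h also left out, these were 0.02, 0.21, 0.22 and 0.24.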

How the results depend on the processing

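The counts of called members kept within 1.5 times the main value under RLE scaling, DESeq2, no filter on low counts, only the groups compared, the second table's reads and a threshold of 0.01. Scaling moved them. With library totals alone, S14 at 3 h called 13 members, LPS at 3 h 37 and S14 against LPS at 3 h 37. With spike-in scaling, the counts were 1 (S14, 3 h), 12 (LPS, 3 h), 31 (S14, 18 h), 9 for S14 against LPS at each time, 29 (untreated over time) and 14 (S14 effect over time); with untreated replicate 4 of 18 h also left out they were 4 (S14, 3 h), 16 (LPS, 18 h), 11 (S14 against LPS, 3 h) and 5 (S14 effect over time). Spike-in reads numbered 705 to 2588 per library, which limits that scaling. Leaving out 1 library at a time gave 7 to 8 called members for S14 at 3 h, 21 to 23 for LPS at 3 h, 12 to 15 for S14 at 18 h, 27 to 29 for LPS at 18 h, 19 to 21 and 21 to 23 for S14 against LPS at 3 h and 18 h, 16 to 23 for untreated cells over time, and 7 to 10 and 26 to 28 for the S14 and LPS effects over time. Among members with full values, in the comparisons for which they were chosen, S1pr1 with S14 at 18 h fell short without S14 replicate 2 or 3 (-0.47 to -0.45), and Kdsr, Cerk and S1pr1 with S14 at 3 h under spike-in scaling (-1.0, -0.88 and -0.81). Some of their calls in other comparisons were lost too, among them Kdsr with LPS at 3 h (-1.02) and Cers6 with LPS at 18 h (0.28) under spike-in scaling and Sgms2 with LPS at 3 h with library totals alone (0.57), and under spike-in scaling Ormdl3 with LPS (-0.07) and Smpdl3b with S14 (-0.55) at 18 h changed sign.

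Deviations from group means correlated weakly between libraries of the same replicate number, from -0.101 to 0.143 over 60 pairs, with 1 pair over 0.1. The median was 0.026, against -0.008 for pairs of other numbers. Since 17 of 24 libraries were closest to their own number, a pairing by replicate number is not excluded. With the replicate number as a block, called members were 8 and 23 for S14 and LPS at 3 h, 16 and 28 at 18 h, 21 and 24 for S14 against LPS at 3 h and 18 h, 20 for untreated cells over time, and 10 and 27 for the S14 and LPS effects over time.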
